A study of Mus musculus with 7 samples.

Results

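The single library of haematopoietic stem cells (HSC) from pMT-10 mice was compared with the 2 libraries of common myeloid progenitors (CMPs) from BL/6 mice, across all genes and within 1 sequencing chip. These are 3 of the 7 libraries of a study of interleukin-10 (IL-10) in bone marrow. The pMT-10 mouse carries an Il10 transgene driven by a metallothionein promoter, which zinc induces, and BL/6 mice are the controls without it. All mice of both strains drank zinc for 15 days, and the cells were purified by fluorescence-activated sorting. Strain and cell population both differ between the groups compared, so neither can be read from this contrast alone. The other 4 libraries, 2 of pMT-10 LSK CD150+CD48+ cells (stem and multipotent progenitors that carry both surface proteins) and 2 of pMT-10 CMPs, were read on the other chip and served to sort the genes. The labels give neither the gates of the HSC and CMP sorts, nor the number of mice behind a library, nor their age. Whether replicate libraries are of different mice is not said either, so p-values reflect the spread among these libraries, which may be technical.

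HSC sit at the top of blood formation, mostly at rest, and are marked by surface proteins such as EPCR (Procr) and CD150 (Slamf1) and by transcription factors such as Mecom and Hlf. CMPs stand further down, divide, and give rise to red cells, platelets, granulocytes and monocytes, whose genes they begin to read at low level. Interferon-γ induces IRF1, guanylate-binding proteins and the transactivator CIITA, which in turn switches on MHC class II genes. In bone marrow, interferon-γ is also known to act on stem cells during infection.

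Totals were 7372430 counts in the HSC library, against 10952847 and 12652309 in BL/6 CMPs, and 8467014 to 13854314 in the other 4. Between 10104 and 10620 genes had 10 or more counts in a library, and 6.11 to 7.93% of all reads came from the top 10 genes. Where a gene has 0 counts, as many as 3 remain possible, which is 0.397 CPM (counts scaled to a common library size) in the HSC library, against 0.277 and 0.242 CPM in BL/6 CMPs. Reads carry no molecular identifiers, so floors and count intervals cover counting error only. The SD across genes of the log2 difference was 1.05 and 1.07 between the HSC library and each BL/6 CMP library, against 0.260 between the BL/6 pair, 0.356 between the LSK CD150+CD48+ pair and 0.639 between the pMT-10 CMP pair. Il10 had 1 count in the HSC library, 0 and 2 in the LSK CD150+CD48+ pair, 0 and 0 in pMT-10 CMPs, and 0 and 1 in BL/6 CMPs, so a difference in its transcript was not detectable at this depth.

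The labels held up against the cells' markers, with exceptions. Procr was at 38.5 CPM in the HSC library, against 1.11 and 1.13 CPM in BL/6 CMPs. Mecom was at 47.6 CPM in HSC, against 2.31 and 3.07 CPM in BL/6 CMPs. Cd48, which stem cell gates exclude, was at 6.48 CPM in HSC, against 20.4 and 17.9 CPM in BL/6 CMPs (log2 fold change -1.56 ± 0.46, SE; adjusted p = 0.0401). That call was lost without either BL/6 library (adjusted p = 0.118 without replicate 1 and 0.0887 without replicate 2) and without LSK CD150+CD48+ replicate 1 or 2 (0.0729 and 0.0713), and with limma-voom (0.111). Mllt3, a regulator of HSC maintenance, went the other way, at 7.01 CPM in HSC against 35.0 and 56.0 CPM in BL/6 CMPs. Kit, a marker of HSC and CMPs alike, was at 157 CPM in HSC against 303 and 274 CPM in BL/6 CMPs. It was not called (-0.87 ± 0.31, adjusted p = 0.076). Kit was called lower without pMT-10 CMP replicate 1 or 2 (adjusted p = 0.00326 and 0.00329), with DESeq2 (0.0495), with no filter on low counts (0.00711) and with HSC and BL/6 CMPs alone (6e-11). Among CMP markers, Cebpa, the granulocyte-monocyte master factor, was at 2.38 CPM in HSC, against 39.6 and 38.7 CPM in BL/6 CMPs. Cd34 was at 76.5 CPM in HSC, against 129 and 118 CPM in BL/6 CMPs and 21.4 and 29.8 CPM in LSK CD150+CD48+ cells. Its difference from BL/6 CMPs was not called (-0.69 ± 0.34, adjusted p = 0.182), except in some fits with fewer libraries. Elane, another CMP marker, was not called either. Mpo (myeloperoxidase) had only 12.1 and 16.8 CPM in BL/6 CMPs, and Csf1r (the M-CSF receptor) 2.03 and 1.45 CPM, whereas Car1, an erythroid carbonic anhydrase, had 8878 and 10478 CPM there.

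Across the genome, 2320 of 11429 tested genes (20.3%) had an adjusted p under 0.05 (edgeR's quasi-likelihood test with Benjamini-Hochberg adjustment, used for every adjusted p here unless another tool is named). Of these, 1349 (11.8%) were higher and 971 (8.50%) lower in HSC than in BL/6 CMPs. At least 2-fold differences made up 1997 of the calls (17.5% of genes tested). The median log2 fold change over all tested genes was -0.01. With 1 HSC library, the test assumes that HSC vary as the other groups do, with 3 residual degrees of freedom. The count moved with the library left out: 1392 and 1414 genes without LSK CD150+CD48+ replicate 1 and 2, 4821 and 4828 without pMT-10 CMP replicate 1 and 2, and 918 and 815 without BL/6 CMP replicate 1 and 2.

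Genes called were then sorted by the other pMT-10 libraries. A gene was put in the population class where HSC also differed from pMT-10 CMPs in the same direction (adjusted p under 0.05) and the HSC library lay beyond all 4 CMP libraries. It was put in the strain class where both pMT-10 CMPs and LSK CD150+CD48+ cells also differed from BL/6 CMPs in that direction and all 5 pMT-10 libraries lay beyond both BL/6 libraries. These further contrasts share the HSC library or the BL/6 libraries with the first and cross the chips, so the classes are a sorting of the calls and not independent evidence.

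The population class held 1291 genes (11.3% of genes tested, 55.6% of the calls), 765 of them higher (6.69%) and 526 lower (4.60%) in HSC. On their own, 2912 genes (25.5%) differed between HSC and pMT-10 CMPs. Without single libraries the class ran to 761 and 770 genes (LSK CD150+CD48+ replicate 1 and 2), 2495 and 2460 (pMT-10 CMP replicate 1 and 2) and 597 and 550 (BL/6 CMP replicate 1 and 2). The strain class held 416 genes (3.64% of genes tested, 17.9% of the calls), 273 higher (2.39%) and 143 lower (1.25%) in pMT-10. On their own, 3204 genes (28.0%) differed between pMT-10 and BL/6 CMPs and 1899 (16.6%) between LSK CD150+CD48+ cells and BL/6 CMPs. Without single libraries the strain class held 81 and 154 genes (LSK CD150+CD48+ replicate 1 and 2), 1131 and 1174 (pMT-10 CMP replicate 1 and 2) and 84 and 83 (BL/6 CMP replicate 1 and 2). Both classes claimed 115 genes (1.01% of genes tested), 79 of them higher (0.691%) and 36 lower (0.315%). That left 1176 genes (10.3%) in the population class only, 686 higher (6.00%) and 490 lower (4.29%), and 301 (2.63%) in the strain class only, 194 higher (1.70%) and 107 lower (0.936%). The other 728 calls (6.37% of genes tested, 31.4% of the calls), 390 higher (3.41%) and 338 lower (2.96%), were in neither class.

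**Figure D1:**
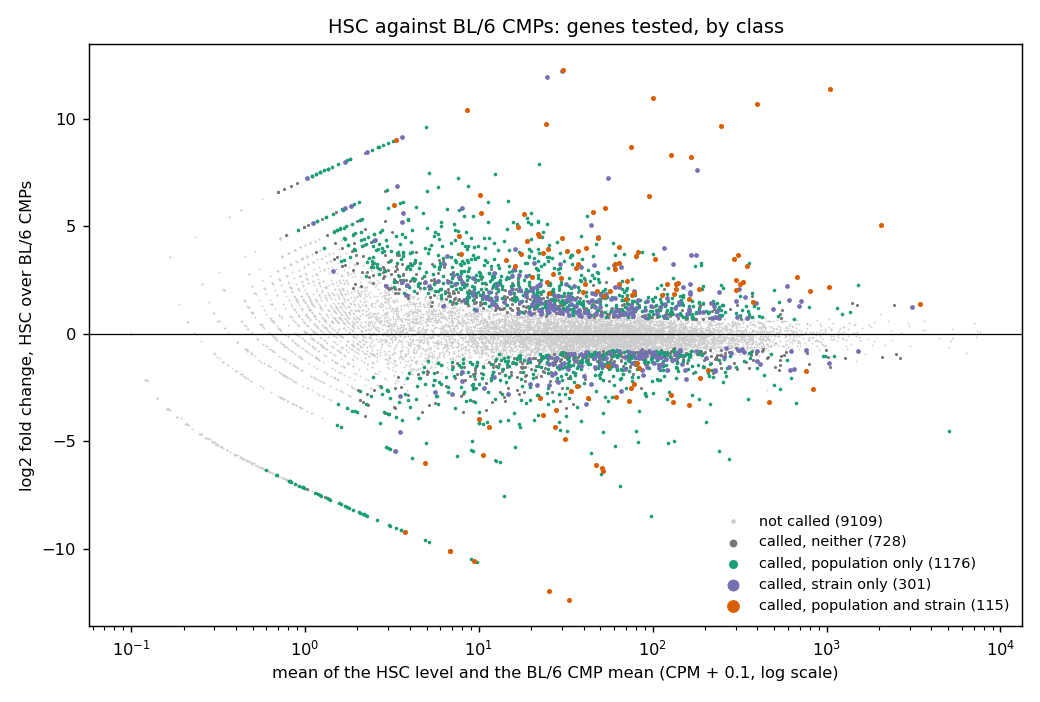
Log2 fold change of HSC over BL/6 CMPs (vertical) against the mean level in CPM + 0.1 (horizontal, log scale) for the 11429 genes tested. Colours mark genes not called and the 4 classes of called genes; the oblique bands at the left are genes with 0 or few counts in a group, and the 115 genes of both classes include most of the points furthest above 0.

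Most stem cell genes tested were higher in HSC than in BL/6 CMPs, and the majority of these were also higher than in pMT-10 CMPs. Of 48 stem cell identity genes, 43 passed the count filter, of which 32 were higher and 2 lower in HSC than in BL/6 CMPs, with a median log2 fold change of 2.0 beside -0.01 over all genes. For this and every later list, the shares over all genes tested were 11.8% higher and 8.50% lower. The population class alone held 22 of the 32, the strain class alone held 0, and 3 were in both. Procr (chromosome 2, 155751117 to 155755471) was at 38.5 CPM in HSC, at most 0.719 CPM in LSK CD150+CD48+ cells, 1.76 and 2.20 CPM in pMT-10 CMPs and 1.11 and 1.13 CPM in BL/6 CMPs. The HSC library thus stood above all 6 others, and the log2 fold change over BL/6 CMPs was 5.09 ± 0.63 (adjusted p = 0.000817). Mecom, a zinc-finger factor needed for long-term HSC, was at 47.6 CPM in HSC and at 2.31 to 4.09 CPM in the 6 other libraries (4.14 ± 0.35, adjusted p = 0.000122).

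The HSC library was also the highest for other genes of HSC, while the order of the other groups varied. Esam, an adhesion molecule of HSC, was at 88.6 CPM in HSC, against 4.61 and 5.25 CPM in BL/6 CMPs (4.16 ± 0.37, adjusted p = 0.000155). Slamf1 was at 89.3 CPM in HSC, against 25.5 and 19.3 CPM in BL/6 CMPs (2.0 ± 0.26, adjusted p = 0.000939). It was at 53.3 and 59.8 CPM in LSK CD150+CD48+ cells, which were sorted for its protein, and 12.8 and 12.0 CPM in pMT-10 CMPs. Hlf, a PAR bZIP factor of HSC, was at 77.7 CPM in HSC against 18.8 and 24.2 CPM in BL/6 CMPs (1.85 ± 0.26, adjusted p = 0.00153). Fgd5, which marks HSC, was at 26.2 CPM in HSC against 1.66 and 0.969 CPM in BL/6 CMPs (4.31 ± 0.80, adjusted p = 0.00584), and was not called without BL/6 replicate 1 or 2 (adjusted p = 0.0551 and 0.0887).

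The exceptions among stem cell genes were Gata2 and Mllt3. Gata2, a factor of stem and mast cells, was at 257 CPM in HSC, 316 and 176 CPM in pMT-10 CMPs, 1447 and 1511 CPM in LSK CD150+CD48+ cells and 763 and 732 CPM in BL/6 CMPs. HSC therefore lay within the range of pMT-10 CMPs and below BL/6 CMPs (-1.54 ± 0.33, adjusted p = 0.0122). Mllt3 was at 7.01 CPM in HSC and 11.2 and 3.71 CPM in pMT-10 CMPs, against 35.0 and 56.0 CPM in BL/6 CMPs (-2.70 ± 0.59, adjusted p = 0.0129). It was higher in LSK CD150+CD48+ cells, at 63.3 and 67.8 CPM, and so was not low in all pMT-10 libraries. Without LSK CD150+CD48+ replicate 1 or 2 or BL/6 replicate 2 Mllt3 was not called (adjusted p = 0.0574, 0.0571 and 0.0705).

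Several of the largest population-only increases were genes read almost nowhere else. Evc and Evc2, partners in a ciliary complex of Hedgehog signalling, lie head to head on chromosome 5 with RefSeq starts 1597 bases apart. Evc had 332 counts (43.9 CPM) in HSC, against 1 and 3 counts in BL/6 CMPs, and 0 or 1 count in the other 4 libraries (7.90 ± 0.63 over BL/6 CMPs, adjusted p = 0.000155). Evc2 had 185 counts (24.5 CPM) in HSC, against 1 and 2 counts in BL/6 CMPs, a ratio of 189 (95% exact interval for counting error 63.8 to 927; adjusted p = 0.000214). Both were thus at or near the floor in all CMP and LSK CD150+CD48+ libraries. They passed the count filter through the HSC library alone. No replicate shows the spread at their HSC level, so their errors and adjusted p do not measure it. Hoxb2, a homeobox factor, was at 28.8 CPM in HSC against 0.185 and 0.565 CPM in BL/6 CMPs (6.18 ± 0.86, adjusted p = 0.00149). Clu (clusterin, a secreted chaperone) was at 82.0 CPM in HSC against 1.38 and 2.18 CPM in BL/6 CMPs (5.50 ± 0.37, adjusted p = 6.45e-05). Ccm2l, a relative of the vascular gene Ccm2, was at 22.1 CPM in HSC against 0.185 and 0.404 CPM (6.15 ± 0.66, adjusted p = 0.000387). Ppp1r16b, a phosphatase regulatory subunit, was at 38.8 CPM in HSC against 0.831 and 0.727 CPM (5.62 ± 1.0, adjusted p = 0.00482), a call lost without BL/6 replicate 1 or 2 (adjusted p = 0.146 and 0.157).

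Megakaryocyte and platelet genes rose with the stem cell genes. Of 24, 21 were tested, of which 14 were higher and 0 lower in HSC (median 2.06), 8 of them in the population class only, 1 in the strain class only and 2 in both. Vwf and Cd9 are among those also on the stem cell list. Vwf, the platelet adhesion protein von Willebrand factor, was at 315 CPM in HSC and 21.6 to 38.0 CPM in all 6 other libraries (3.15 ± 0.23 over BL/6 CMPs, adjusted p = 7.56e-05). Pf4, a platelet chemokine, was at 651 CPM in HSC, 99.3 and 109 CPM in LSK CD150+CD48+ cells, 131 and 225 CPM in pMT-10 CMPs and 61.2 and 71.3 CPM in BL/6 CMPs (3.30 ± 0.30, adjusted p = 0.000155). Itga2b (CD41, the platelet integrin chain) belonged to both classes, at 1159 CPM in HSC, 374 to 549 CPM in the other pMT-10 libraries and 185 and 192 CPM in BL/6 CMPs (2.62 ± 0.25, adjusted p = 0.000214). Selp, the adhesion receptor P-selectin, was at 69.5 CPM in HSC and 51.1 and 45.1 CPM in pMT-10 CMPs, against 13.7 and 11.0 CPM in BL/6 CMPs, while LSK CD150+CD48+ cells had 14.7 and 10.9 CPM.

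Mmrn1 (multimerin, a platelet and endothelial granule protein; chromosome 6, 60924976 to 60989378) was in both classes and was not read in BL/6 CMPs. It had 456 counts (60.3 CPM) in HSC, 87 and 73 counts in LSK CD150+CD48+ cells and 25 and 22 counts in pMT-10 CMPs, against 0 and 0 counts in BL/6 CMPs. HSC were at least 232-fold higher than BL/6 CMPs, taking 3 counts per library as the floor (adjusted p = 7.82e-05).

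**Figure D2:**
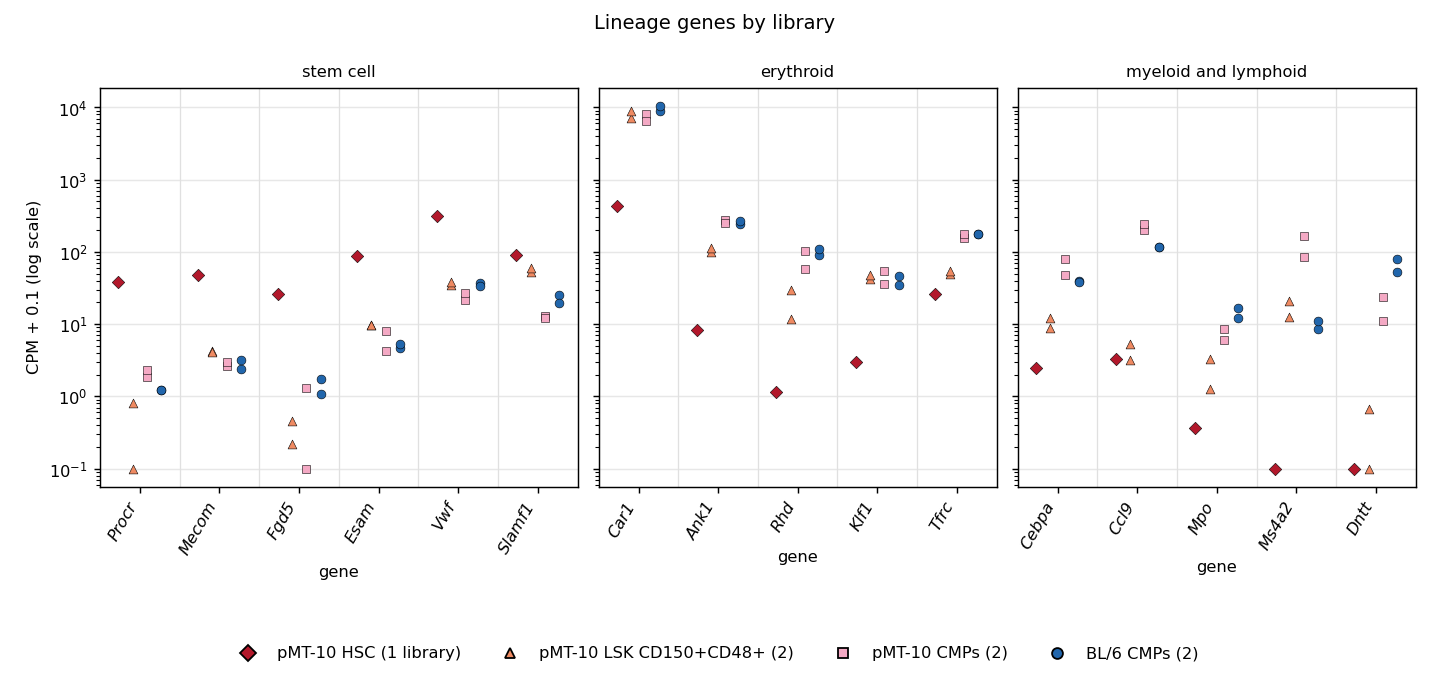
Level of stem cell, erythroid, myeloid and lymphoid genes in each of the 7 libraries (CPM + 0.1, log scale; 1 symbol per library, groups marked by colour and shape). The HSC library is the highest of all for the 6 stem cell genes drawn, Vwf at 315 CPM against 21.6 to 38.0 CPM elsewhere. It lies below all 4 CMP libraries for the erythroid, myeloid and lymphoid genes drawn. The genes are a selection from their lists. Of those not drawn, Lyz2 and Il12a were higher in HSC than in BL/6 CMPs and Irf8 was not called. Gata2 and Mllt3, of the stem cell genes not drawn, were lower.

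Erythroid genes made the other pole. Of 31 erythroid genes 27 were tested, of which 20 were lower and 0 higher in HSC than in BL/6 CMPs (median -2.77). The population class alone held 17 of the 20, and the medians were -2.70 for HSC against pMT-10 CMPs and -0.10 for pMT-10 against BL/6 CMPs, contrasts that share libraries with the first. In sorted bulk cells, fewer cells of a type and less RNA per cell cannot be told apart. Car1 (chromosome 3, 14766216 to 14808368) was at 425 CPM in HSC, 7059 and 8868 CPM in LSK CD150+CD48+ cells, 8159.9 and 6432 CPM in pMT-10 CMPs and 8878 and 10478 CPM in BL/6 CMPs. HSC alone stood apart (-4.51 ± 0.32 against BL/6 CMPs, adjusted p = 7.29e-05).

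Other erythroid genes that fell were those of red cell membrane proteins, enzymes and factors named next, whereas the factors Gfi1b and Nfe2 and the membrane gene Slc4a1 were not called. Ank1, the ankyrin of the red cell skeleton, was at 8.07 CPM in HSC against 246 and 266 CPM in BL/6 CMPs (-4.99 ± 0.29, adjusted p = 2.1e-05). Rhd, a Rhesus membrane protein, was at 1.06 CPM in HSC, 11.8 and 30.1 CPM in LSK CD150+CD48+ cells, 102 and 58.5 CPM in pMT-10 CMPs and 89.3 and 109.6 CPM in BL/6 CMPs (-6.54 ± 0.79, adjusted p = 0.000734). Levels in LSK CD150+CD48+ cells thus lay between those of HSC and CMPs. Klf1, the erythroid Krüppel-like factor, was at 2.91 CPM in HSC against 34.5 and 46.6 CPM in BL/6 CMPs (-3.80 ± 0.42, adjusted p = 0.000474). Tfrc, the transferrin receptor, was at 25.7 CPM in HSC against 176 and 176 CPM (-2.77 ± 0.25, adjusted p = 0.000156). Gata1, the master erythroid factor, was at 166 CPM in HSC and 179 and 262 CPM in pMT-10 CMPs, against 420.5 and 427 CPM in BL/6 CMPs (-1.36 ± 0.32, adjusted p = 0.0179), and was not called without BL/6 replicate 1 or 2 (adjusted p = 0.0562 and 0.0644). Pklr, the red cell pyruvate kinase, was at 9.66 CPM in HSC, 433 and 457 CPM in pMT-10 CMPs and 517 and 567 CPM in BL/6 CMPs (-5.81 ± 0.31, adjusted p = 1.64e-05).

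The promoters of Rhd (chr4:134864406-134864535, plus strand) and Pklr (chr3:89136012-89136141, plus strand) are shown as examples, chosen after their values were seen, of genes of red cells that fell and carry the letters of a GATA factor motif. Each line gives the 130 bases before the RefSeq start (GRCm38.p6), 5′ to 3′, with AGATAA in capitals.
Rhd: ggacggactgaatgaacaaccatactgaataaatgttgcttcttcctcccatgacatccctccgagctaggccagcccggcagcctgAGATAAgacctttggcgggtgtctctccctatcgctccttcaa
Pklr: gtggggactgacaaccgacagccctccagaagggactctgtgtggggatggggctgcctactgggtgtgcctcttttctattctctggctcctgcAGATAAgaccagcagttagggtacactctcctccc
AGATAA, searched on both strands, was in the windows of 4 of 16 erythroid genes matched to the promoter table, and in 4.79% of all 32851 windows of this length. A gene was counted if any of its start windows held the letters, so the gene count and the share of single windows are unlike measures. The 4 were Rhd, Epor, Sphk1 and Alas2, of which Alas2 was not called, and Pklr is not on that list. A match describes the letters and says nothing of binding.

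Among the largest decreases, Ermap (an erythroblast membrane protein) had 4 counts (0.529 CPM) in HSC, 29.8 and 6.26 CPM in pMT-10 CMPs and 168 and 221 CPM in BL/6 CMPs (-8.49 ± 1.13, adjusted p = 0.00117). With no filter on low counts Ermap was not called (adjusted p = 0.0952). Atp7b, a copper-transporting ATPase, was at 0.926 CPM in HSC against 124 and 132 CPM in BL/6 CMPs (-7.09 ± 0.90, adjusted p = 0.000891). Tmem56, also called Tlcd4, had 1 count in HSC against 256 and 386 counts in BL/6 CMPs, a ratio of 0.00478 (95% exact interval 0.000121 to 0.0268; adjusted p = 0.000273). Prss50 (a serine protease) and Slc25a21 (a mitochondrial carrier of oxodicarboxylates) were in both classes, at 1.19 and 1.32 CPM in HSC, with log2 fold changes of -6.41 ± 0.52 and -6.24 ± 0.52 against BL/6 CMPs.

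Monocyte and dendritic, basophil and mast cell, and lymphoid priming lists each had more members lower than higher in HSC, while most neutrophil genes were not called. Of 20 tested monocyte and dendritic genes, 8 were lower and 2 higher (median -1.91), and all 8 were in the population class only. Ccl9, a chemokine of myeloid progenitors, was at 3.18 CPM in HSC, 199 and 247 CPM in pMT-10 CMPs and 118 and 118 CPM in BL/6 CMPs (-5.21 ± 0.40, adjusted p = 7.82e-05). Zbtb46, a dendritic cell factor, was at 1.59 CPM in HSC against 30.7 and 34.6 CPM in BL/6 CMPs (-4.35 ± 0.42, adjusted p = 0.000217). Csf1r had 0 counts in HSC against 22 and 18 counts in BL/6 CMPs, at least 4.39-fold lower (adjusted p = 0.0178, lost without BL/6 replicate 1 or 2 at 0.0725 and 0.0509). Irf8, a monocyte and dendritic cell factor, was at 68.0 CPM in HSC against 70.4 and 60.4 CPM in BL/6 CMPs and was not called (0.06 ± 0.26, adjusted p = 0.9).

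Of 19 tested neutrophil genes, 3 were lower and 1 higher (median -0.09), beside 8.50% lower and 11.8% higher over all genes. Elane, Prtn3, Ms4a3 and Csf3r were among those not called. Cebpa differed by -4.03 ± 0.47 (adjusted p = 0.000653). Ctsg, the granule protease cathepsin G, was at 11.4 CPM in HSC against 104 and 92.9 CPM in BL/6 CMPs (-3.11 ± 0.39, adjusted p = 0.000871). Mpo had 2 counts in HSC against 131 and 208 counts, a ratio of 0.0181 (95% exact interval 0.00219 to 0.0660; adjusted p = 0.00265). Lyz2, the lysozyme of myeloid cells, went the other way, at 319 CPM in HSC, 67.9 to 126 CPM in the other pMT-10 libraries and 62.5 and 73.8 CPM in BL/6 CMPs (2.23 ± 0.23, adjusted p = 0.000315).

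Basophil, mast cell and eosinophil genes had 6 of 13 lower and 1 higher (median -1.54). Ms4a2, the beta chain of the IgE receptor, had 0 counts in HSC, 85.8 and 168 CPM in pMT-10 CMPs and 8.49 and 10.8 CPM in BL/6 CMPs. HSC were at least 24.3-fold lower than BL/6 CMPs (adjusted p = 0.00221; 0.0639 with limma-voom). Il1rl1, the IL-33 receptor, was at 4.10 CPM in HSC and 61.2 to 109 CPM in the 6 other libraries (-4.58 ± 0.39 against BL/6 CMPs, adjusted p = 0.000123). Cpa3, the mast cell carboxypeptidase, was at 6.35 CPM in HSC against 38.7 and 46.2 CPM in BL/6 CMPs (-2.74 ± 0.39, adjusted p = 0.00158).

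Of 11 tested lymphoid priming genes, 7 were lower and 2 higher (median -1.44). Dntt, the terminal transferase of early lymphoid cells (chromosome 19, 41029275 to 41059525), had 0 counts in HSC, 0 and 8 counts in LSK CD150+CD48+ cells, 99 and 207 counts in pMT-10 CMPs and 563 and 979 counts in BL/6 CMPs. HSC were at least 165-fold lower than BL/6 CMPs (adjusted p = 0.000822), and Dntt fell in both classes. Flt3, the receptor of lymphoid-primed progenitors, was at 1.06 CPM in HSC against 17.3 and 22.2 CPM in BL/6 CMPs (-4.21 ± 0.82, adjusted p = 0.00731). Satb1, a chromatin organiser of lymphoid cells, was at 1.72 CPM in HSC against 29.1 and 35.3 CPM (-4.22 ± 0.45, adjusted p = 0.000354). The exceptions were Mef2c and Il12a, a subunit of interleukin-12, which was at 75.5 CPM in HSC against 8.77 and 10.3 CPM in BL/6 CMPs (2.98 ± 0.28, adjusted p = 0.000195). Aldh1a7, an aldehyde dehydrogenase and no member of these lists, had 0 counts in HSC against 471 and 707 counts in BL/6 CMPs, at least 127-fold lower (adjusted p = 7.82e-05).

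Most interferon-γ genes tested were higher in all pMT-10 libraries, and they were often highest in HSC. Of 39 such genes, 27 were tested, of which 25 were higher and 0 lower in HSC than in BL/6 CMPs (median 3.47). The strain class alone held 13, both classes held 11, and the population class alone held 1 (Upp1). Icam1 and Irf8, also on this list, were not called. Irf8 was at 36.2 and 30.5 CPM in LSK CD150+CD48+ cells, below the 70.4 and 60.4 CPM of BL/6 CMPs. Irf1, an interferon regulatory factor (chromosome 11, 53770014 to 53778374), was at 625 CPM in HSC, 661 and 584 CPM in LSK CD150+CD48+ cells, 419.8 and 331 CPM in pMT-10 CMPs and 63.2 and 76.1 CPM in BL/6 CMPs. All 5 pMT-10 libraries lay above both BL/6 libraries (3.17 ± 0.23 for HSC over BL/6 CMPs, adjusted p = 7.56e-05). Gbp3, a guanylate-binding protein, was at 308 CPM in HSC and 292 to 396 CPM in the other pMT-10 libraries, against 23.5 and 24.9 CPM in BL/6 CMPs (3.67 ± 0.23, adjusted p = 3.56e-05). Its level did not differ beyond the spread between HSC and pMT-10 CMPs (-0.23 ± 0.23, adjusted p = 0.495). Gbp2 was at 217 CPM in HSC, 368 and 373 CPM in LSK CD150+CD48+ cells, 168 and 36.6 CPM in pMT-10 CMPs and 15.5 and 12.2 CPM in BL/6 CMPs (3.97 ± 0.64, adjusted p = 0.00288), with its call lost without BL/6 replicate 1 or 2 (adjusted p = 0.109 and 0.14) or with no filter on low counts (0.149). Gbp genes are near-identical in places, and reads could be split between them.

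Other members of this group were highest in HSC. Cxcl9, a chemokine for T cells (chromosome 5, 92321347 to 92328079), had 1520 counts (201 CPM) in HSC, 5.49 and 5.47 CPM in LSK CD150+CD48+ cells and 1.76 and 4.05 CPM in pMT-10 CMPs, against 2 and 0 counts in BL/6 CMPs. The ratio of HSC to BL/6 CMPs was 2335 (95% exact interval 645 to 19294; adjusted p = 2.1e-05), and HSC also exceeded pMT-10 CMPs by 6.11 ± 0.44 (adjusted p = 0.000176). Serpina3g, a serpin of lymphoid and stem cells, was at 3969 CPM in HSC, 2197 and 1923 CPM in LSK CD150+CD48+ cells, 818 and 612 CPM in pMT-10 CMPs and 121 and 114 CPM in BL/6 CMPs (5.08 ± 0.24, adjusted p = 1.44e-05). The 4 groups did not overlap. Its neighbour Serpina3f was at 253 CPM in HSC against 1.02 and 0.565 CPM in BL/6 CMPs (8.32 ± 0.42, adjusted p = 1.49e-05). These serpins are close copies, so reads may be shared. Ly6a (SCA-1, on the stem cell list too and used to sort LSK cells) was at 331 CPM in HSC, 325 and 249 CPM in LSK CD150+CD48+ cells, 19.4 and 28.0 CPM in pMT-10 CMPs and 0.0923 and 2.02 CPM in BL/6 CMPs (8.22 ± 0.66, adjusted p = 9.66e-05).

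The promoters of Irf1 (chr11:53769884-53770013, plus strand), Serpina3g (chr12:104236017-104236146, plus strand) and Serpina3f (chr12:104214414-104214543, plus strand) are shown as examples, chosen after their values were seen, of interferon-γ genes in both classes with a match to TTCNNNGAA, the letters of a STAT site. Each is the 130 bases before the RefSeq start, with the match in capitals.
Irf1: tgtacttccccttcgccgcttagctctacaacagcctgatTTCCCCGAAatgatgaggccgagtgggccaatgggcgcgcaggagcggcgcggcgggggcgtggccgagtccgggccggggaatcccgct
Serpina3g: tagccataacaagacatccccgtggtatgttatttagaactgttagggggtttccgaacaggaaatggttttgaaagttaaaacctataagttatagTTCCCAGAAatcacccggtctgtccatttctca
Serpina3f: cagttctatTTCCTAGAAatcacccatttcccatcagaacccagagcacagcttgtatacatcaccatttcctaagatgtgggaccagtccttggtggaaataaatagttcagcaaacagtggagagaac
The letters, which read the same on both strands, were in 8 of 21 matched interferon-γ genes and in 3.53% of all 32851 windows. Genes were counted over all their start windows and the percentage over single windows, so these are unlike measures. Among the 8 were also Gbp5, in both classes, and Icam1, which was not called.

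Several MHC class II chains and Ciita, near 0 in BL/6 CMPs, were abundant in HSC, while other genes of the pathway did not pass the test. All 16 listed genes were tested, of which 9 were higher and 0 lower (median 2.5), with 3 in the strain class only, 4 in both and 2 in the population class only. Cd74, the invariant chain of class II, was at 2101 CPM in HSC, 1360.3 and 888 CPM in LSK CD150+CD48+ cells, 164 and 242 CPM in pMT-10 CMPs and 0.461 and 1.05 CPM in BL/6 CMPs. Every pMT-10 library exceeded both BL/6 libraries, and HSC exceeded all others (11.39 ± 0.48 over BL/6 CMPs, adjusted p = 6.32e-06). H2-Eb1, which encodes a beta chain of class II (chromosome 17, 34305867 to 34316674), was at 797 CPM in HSC, 952 and 594 CPM in LSK CD150+CD48+ cells, 206 and 288 CPM in pMT-10 CMPs and 0.461 and 0.485 CPM in BL/6 CMPs (10.68 ± 0.43, adjusted p = 6.32e-06). H2-Aa, the alpha chain of the other class II pair, was at 494 CPM in HSC against 0.0923 and 1.05 CPM in BL/6 CMPs (9.66 ± 0.61, adjusted p = 3.75e-05).

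H2-Ab1 and Ciita were in the strain class only. H2-Ab1, the partner of H2-Aa, was at 359 CPM in HSC and 111 to 375 CPM in the other pMT-10 libraries, against 1.20 and 2.34 CPM in BL/6 CMPs (7.63 ± 0.54, adjusted p = 7.29e-05). Ciita, the class II transactivator, was at 110.2 CPM in HSC, 151 and 96.2 CPM in LSK CD150+CD48+ cells, 49.7 and 48.2 CPM in pMT-10 CMPs and 0.0923 and 1.29 CPM in BL/6 CMPs (7.23 ± 0.59, adjusted p = 0.000109). HSC over pMT-10 CMPs did not pass the test for either gene (0.92 ± 0.43, adjusted p = 0.147 for H2-Ab1, and 1.17 ± 0.45, adjusted p = 0.0854 for Ciita). The factors of the class II promoter complex that are not induced with Ciita, Rfx5, Rfxank and Rfxap, were not called, nor were H2-Oa and H2-Ob, which form the inhibitor of peptide loading. H2-DMb2, a chain of the peptide loader, was in the population class only, at 47.9 CPM in HSC, 3.20 and 5.44 CPM in pMT-10 CMPs and 0.461 and 2.26 CPM in BL/6 CMPs (5.09 ± 0.59, adjusted p = 0.000582).

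The promoters of H2-Eb1 (chr17:34305737-34305866, plus strand) and H2-Aa (chr17:34287824-34287953, minus strand) are shown as the class II chains with the largest increases among those with the Y box letters CTGATTGG, in capitals, in the 130 bases before the RefSeq start.
H2-Eb1: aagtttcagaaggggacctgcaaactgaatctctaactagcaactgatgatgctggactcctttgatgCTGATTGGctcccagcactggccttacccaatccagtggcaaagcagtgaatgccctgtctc
H2-Aa: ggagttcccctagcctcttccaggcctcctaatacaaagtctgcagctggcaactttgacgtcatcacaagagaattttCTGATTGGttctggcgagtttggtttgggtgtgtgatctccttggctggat
CTGATTGG, on either strand, was in 4 of 12 matched class II genes, each counted over all its start windows. It was in 2.96% of all 32851 single windows, which is an unlike measure. The same letters were found before H2-Oa, which was not called.

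MHC class I and peptide loading genes fell mostly in the strain class only. Of 22 tested, 16 were higher and 1 lower in HSC than in BL/6 CMPs (median 1.52), 11 in the strain class only, 4 in both and 0 in the population class only. The median for HSC against pMT-10 CMPs was -0.11. H2-Q6, a class Ib heavy chain with close copies, was at 978 CPM in HSC and 929 to 1168 CPM in the other pMT-10 libraries, against 198 and 226 CPM in BL/6 CMPs (2.20 ± 0.22, adjusted p = 0.000217). Psmb10, a subunit of the immunoproteasome, was at 271 CPM in HSC and 284 to 444 CPM in the other pMT-10 libraries, against 48.5 and 60.1 CPM (2.32 ± 0.28, adjusted p = 0.000739). B2m, the light chain of class I, was at 4366 CPM in HSC and 2797 to 4268 CPM in the other pMT-10 libraries, against 1850.4 and 1867 CPM in BL/6 CMPs (1.23 ± 0.24, adjusted p = 0.00739), and was not called without BL/6 replicate 1 or 2 (adjusted p = 0.0691 and 0.0723).

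**Figure D3:**
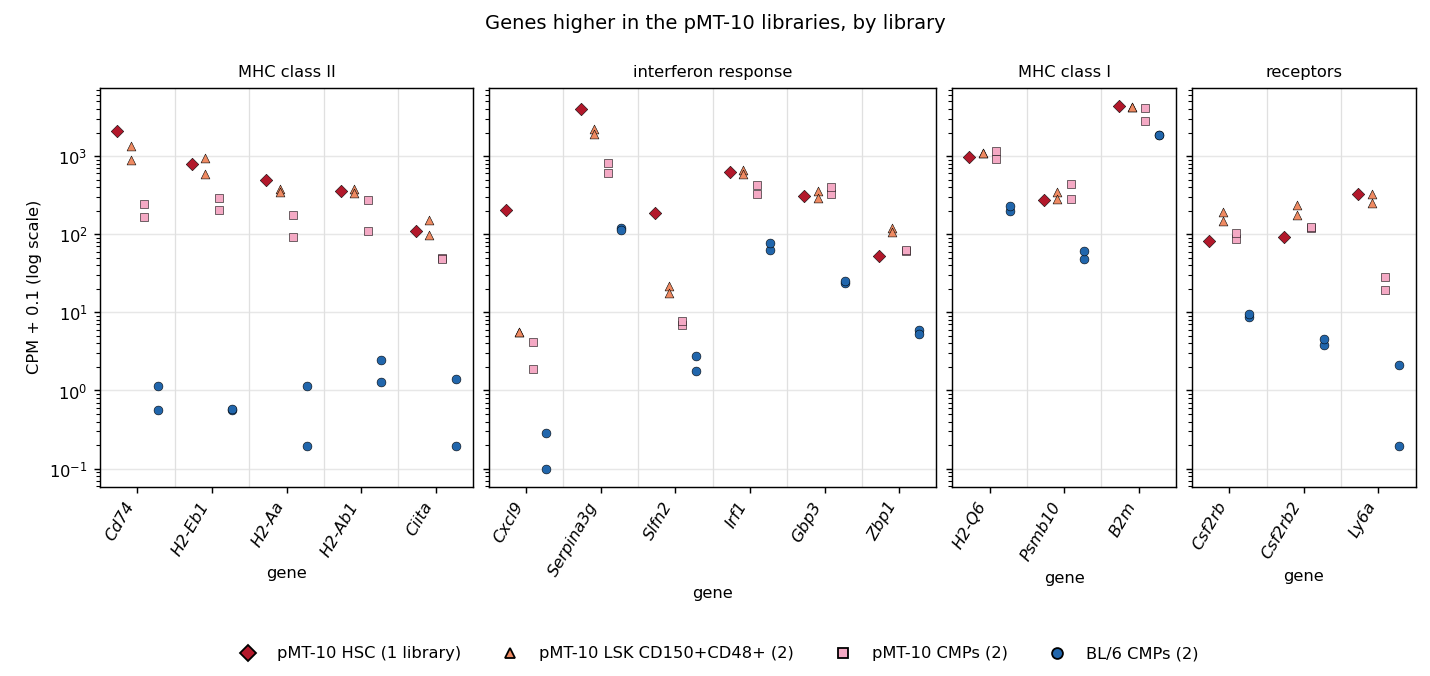
Level of MHC class II, interferon response, MHC class I and receptor genes in each of the 7 libraries (CPM + 0.1, log scale; 1 symbol per library). Both BL/6 CMP libraries lie below all 5 pMT-10 libraries for every gene drawn; Cxcl9 and Slfn2 are highest in HSC by a wide gap, and Gbp3 and Psmb10 are level across the pMT-10 libraries.

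Type I interferon genes moved less. Of 39 tested, 10 were higher and 4 lower (median 0.55), beside 11.8% higher and 8.50% lower over all genes. The strain class only held 6 of the 10. Zbp1, a sensor of Z-form nucleic acids, was at 52.7 CPM in HSC and 61.5 to 121 CPM in the other pMT-10 libraries, against 5.81 and 5.25 CPM in BL/6 CMPs (3.25 ± 0.24, adjusted p = 7.56e-05). Oasl2, an antiviral effector, was at 243 CPM in HSC and 127 to 169.6 CPM in the other pMT-10 libraries, against 54.2 ± 6.03 CPM in BL/6 CMPs (SD, n = 2; 2.17 ± 0.24, adjusted p = 0.000395). Slfn2, a Schlafen protein, was at 188 CPM in HSC, 21.4 and 17.6 CPM in LSK CD150+CD48+ cells, 6.73 and 7.65 CPM in pMT-10 CMPs and 2.68 and 1.70 CPM in BL/6 CMPs (6.43 ± 0.32, adjusted p = 1.49e-05). HSC were thus far above every other library for Slfn2, in both classes.

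Genes of the IL-10 and STAT3 response had 7 of 16 tested higher and 1 lower (median 0.83). Tnip3, an inhibitor of NF-κB signalling, was at 42.1 CPM in HSC, 3.75 to 9.81 CPM in the other pMT-10 libraries and 1.94 and 1.45 CPM in BL/6 CMPs (4.63 ± 0.36, adjusted p = 8.39e-05). Bcl3, an atypical IκB protein, was at 28.7 CPM in HSC against 2.68 and 3.71 CPM in BL/6 CMPs (3.16 ± 0.33, adjusted p = 0.000316). Pim1, a survival kinase, was at 1278 CPM in HSC and 492 to 661 CPM in the other pMT-10 libraries, against 376 and 274 CPM (1.98 ± 0.24, adjusted p = 0.000734). These genes lay in both classes. Il10ra, the ligand-binding IL-10 receptor chain, was lower, at 3.44 CPM in HSC against 11.4 and 12.9 CPM in BL/6 CMPs (-1.82 ± 0.55, adjusted p = 0.0455). That call was lost without either LSK CD150+CD48+ library (adjusted p = 0.104 and 0.103) or either BL/6 library (0.109 and 0.149), with library totals (0.0522), limma-voom (0.0835), a minimum count of 50 (0.0506) and thinning (0.0505).

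Receptors of blood cell cytokines were split evenly, 5 of 27 higher and 5 lower (median -0.09). Over all genes tested, 11.8% were higher and 8.50% lower. Csf2rb, the shared beta chain of the IL-3, IL-5 and GM-CSF receptors, and Csf2rb2, its IL-3-specific copy, were in the strain class only. Csf2rb2 was at 92.1 CPM in HSC, 234 and 176 CPM in LSK CD150+CD48+ cells, 120.2 and 125 CPM in pMT-10 CMPs and 3.69 and 4.44 CPM in BL/6 CMPs (4.49 ± 0.26, adjusted p = 2.27e-05). Csf2rb was at 82.3 CPM in HSC and 87.7 to 194 CPM in the other pMT-10 libraries, against 8.49 and 9.29 CPM in BL/6 CMPs (3.21 ± 0.25, adjusted p = 8.68e-05). HSC were the lowest of the 5 pMT-10 libraries for both, and the copies are similar enough to share reads. Ifngr1, the ligand-binding interferon-γ receptor chain, was at 149 CPM in HSC against 482 and 446 CPM in BL/6 CMPs (-1.63 ± 0.40, adjusted p = 0.0196), in neither class. It was not called without LSK CD150+CD48+ replicate 1 or 2 (adjusted p = 0.0567 and 0.0564) or BL/6 replicate 1 or 2 (0.0748 and 0.0648). Ifngr2 was at 9.13 CPM in HSC against 13.1 and 11.5 CPM and was not called (-0.43 ± 0.45, adjusted p = 0.531).

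**Figure D4:**
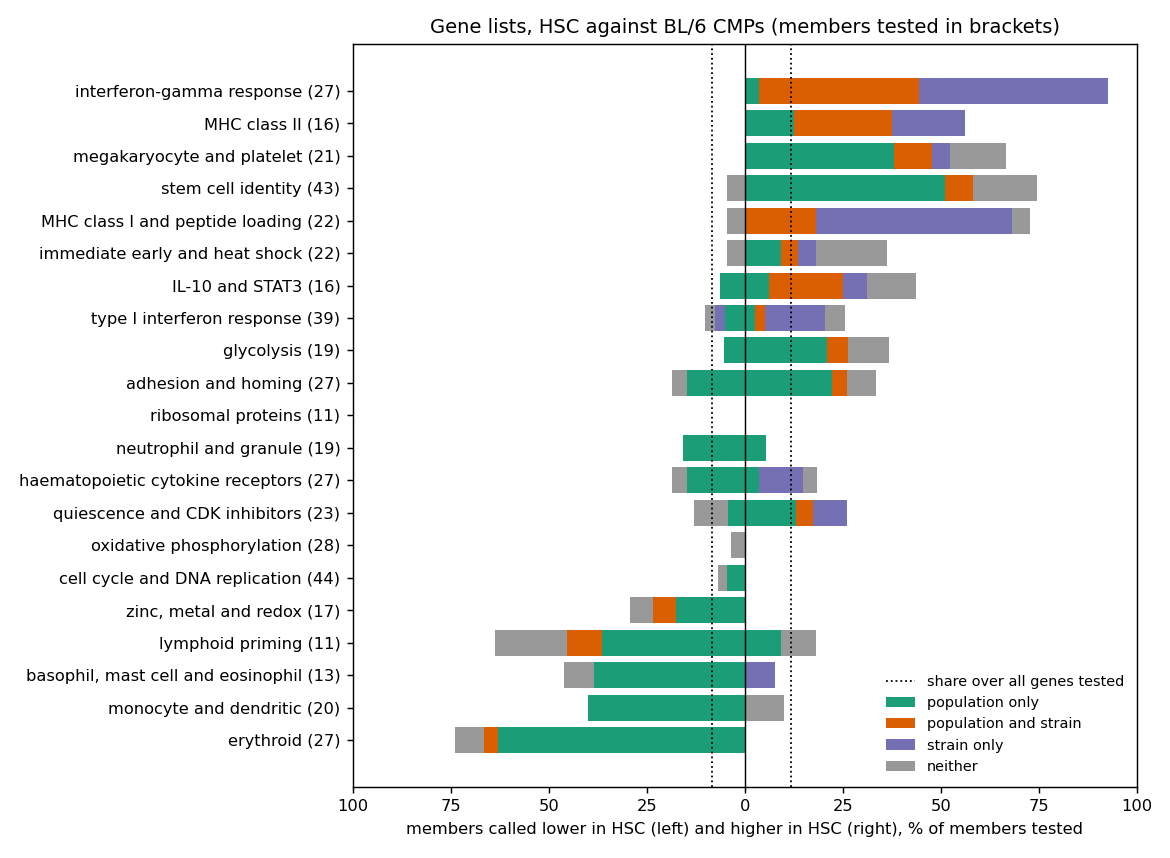
Share of tested members of each gene list called higher (right) or lower (left) in HSC than in BL/6 CMPs, coloured by class; dotted lines give the share over all genes tested (11.8% higher, 8.50% lower). Bars of the interferon-γ and MHC class I lists are mostly strain colours, and those of the stem cell and erythroid lists mostly the population colour.

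The strain class also held genes of the sex chromosomes. Y-linked Eif2s3y (a translation factor subunit), Ddx3y (an RNA helicase) and Kdm5d (a histone demethylase) had 454, 370 and 53 counts in HSC and 0 counts in both BL/6 CMP libraries. HSC were at least 231-fold, 189-fold and 27-fold higher (adjusted p = 0.00154, 0.000116 and 0.000734). Eif2s3y was not called without BL/6 replicate 1 or 2 (adjusted p = 0.0557 and 0.066) or with no filter on low counts (0.206). Y-linked Uty had 367 counts in HSC against 0 and 1 in BL/6 CMPs, a ratio of 1127 (95% exact interval 201 to 44647; adjusted p = 0.000315), in both classes. These genes were read in all 5 pMT-10 libraries. Xist, the X-inactivation RNA, was at 127 CPM in HSC, 284 and 0.144 CPM in LSK CD150+CD48+ cells, 1313 and 943 CPM in pMT-10 CMPs and 859 and 706 CPM in BL/6 CMPs. In CMPs and HSC of pMT-10 and in LSK CD150+CD48+ replicate 1, Y-linked RNA and Xist were thus read in the same libraries. LSK CD150+CD48+ replicate 2 had Y-linked RNA with almost no Xist. The part of the mice's sex in the strain class was not tested.

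Decreases in the strain class only were smaller than the increases. The largest, with at least 20 CPM in BL/6 CMPs, was Serinc5, a membrane protein that restricts retroviruses, at 7.67 CPM in HSC and 7.30 to 30.9 CPM in the other pMT-10 libraries, against 66.0 and 82.9 CPM in BL/6 CMPs (-3.28 ± 0.56, adjusted p = 0.00402). Ehd2, of membrane trafficking, followed at -2.78 ± 0.55 (adjusted p = 0.00772). Ell2, an elongation factor of RNA polymerase II, was at 17.7 CPM in HSC and 15.1 to 30.0 CPM in the other pMT-10 libraries, against 118 and 108 CPM (-2.67 ± 0.32, adjusted p = 0.000659). Sqrdl, of mitochondrial sulfide oxidation, was at -2.39 ± 0.47 (adjusted p = 0.00767). Tceal3 (-2.39 ± 0.64, adjusted p = 0.0295) and Mgat1, of N-glycan processing (-2.33 ± 0.58, adjusted p = 0.0212), were not called without BL/6 replicate 1 (adjusted p = 0.0787 and 0.0942) or 2 (0.139 and 0.0831).

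Cell cycle genes differed little. Of 44 tested, 0 were higher and 3 lower (median -0.17), a share below that over all genes. Ccne1 (cyclin E1) was at 22.6 CPM in HSC and 20.2 and 12.7 CPM in LSK CD150+CD48+ cells, against 70.3 and 85.0 CPM in BL/6 CMPs (-1.78 ± 0.39, adjusted p = 0.0133; 0.0593 without BL/6 replicate 2). Cdc6, which loads the replicative helicase, was at 39.2 CPM in HSC against 66.5 and 76.4 CPM (-0.87 ± 0.25, adjusted p = 0.0355). It was not called without any one of the LSK CD150+CD48+ and BL/6 libraries (adjusted p = 0.0604, 0.0591, 0.104 and 0.187) or with the replicate block (0.0511). Mki67, the proliferation marker, was at 67.3 CPM in HSC against 107 and 122 CPM in BL/6 CMPs, not called (-0.76 ± 0.32, adjusted p = 0.12) except without pMT-10 CMP replicate 1 or 2 (0.0241 and 0.0239) with no filter on low counts (0.0287), or with HSC and BL/6 CMPs alone (6.91e-07). Of 23 quiescence genes and CDK inhibitors, 6 were higher and 3 lower, beside 11.8% higher and 8.50% lower over all genes. Cdkn1c (p57, an inhibitor that keeps HSC at rest) was at 10.2 CPM in HSC against 1.94 and 2.02 CPM (2.36 ± 0.48, adjusted p = 0.00904; 0.0944 and 0.0957 without BL/6 replicate 1 and 2). Ccnd1 (cyclin D1) rose in the strain class only, at 35.5 CPM in HSC against 8.31 and 6.94 CPM (2.22 ± 0.31, adjusted p = 0.00154).

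Of 19 tested glycolysis genes, 7 were higher and 1 lower (median 0.52), and of 28 oxidative phosphorylation genes 0 were higher and 1 lower (median -0.12). Pkm, the pyruvate kinase of most cells, was at 1680.3 CPM in HSC, 591 to 869.9 CPM in the other pMT-10 libraries and 389 and 357 CPM in BL/6 CMPs (2.17 ± 0.25, adjusted p = 0.00061). Pklr, described with the erythroid genes, was the one glycolysis gene that was lower. Aldoc, an aldolase isoenzyme, was at 40.6 CPM in HSC against 4.43 and 4.68 CPM (3.15 ± 0.38, adjusted p = 0.000729). Of 17 zinc, metal and redox genes, 5 were lower and 0 higher. Mt1, a zinc-induced metallothionein, was at 182 CPM in HSC, 433 and 531 CPM in LSK CD150+CD48+ cells, 712 and 727 CPM in pMT-10 CMPs and 648 and 729 CPM in BL/6 CMPs (-1.92 ± 0.24, adjusted p = 0.000871). Slc39a8, a zinc importer, was at 3.18 CPM in HSC against 43.1 and 43.4 CPM (-3.76 ± 0.52, adjusted p = 0.00145).

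Some immediate early and heat shock genes, which respond to handling, were also higher in HSC. Of 22 tested, 8 were higher and 1 (Myc) lower (median 1.26), beside 11.8% higher and 8.50% lower over all genes. Among heat shock genes Hspa1a was higher, whereas Hspa1b, Dnajb1 and Hsph1 were not called. Klf2, a quiescence and shear-stress factor, was at 59.8 CPM in HSC, 8.06 to 15.0 CPM in the other pMT-10 libraries and 4.71 and 3.55 CPM in BL/6 CMPs (3.86 ± 0.40, adjusted p = 0.0003). Junb, an AP-1 subunit that is also on the STAT3 list, was at 358 CPM in HSC against 161 and 124 CPM (1.33 ± 0.22, adjusted p = 0.00332; 0.0644 without BL/6 replicate 2). The summed level of the list was 3341 CPM in HSC, against 3200.5 and 2864 CPM in BL/6 CMPs. The part of handling in the other groups of genes was not tested.

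Markers of other cells were mostly absent. Of 22 T and NK cell genes in the table, 15 were at 0 in HSC, among them Cd3d, Cd3e, Cd3g, Cd4 and Cd8a, and the sum was 132 CPM in HSC against 82.4 and 86.6 CPM in BL/6 CMPs. Most of that sum was Nkg7, which was not called. It had 739 counts in HSC, 2961 and 3669 in LSK CD150+CD48+ cells and 777 and 943 in BL/6 CMPs. Of the 6 tested, 3 were higher (Thy1, Klrb1c and Ccl5); Klrb1c and Ccl5 were not called without any one of the BL/6 or LSK CD150+CD48+ libraries (adjusted p of 0.0601 to 0.137 and 0.0706 to 0.13), nor Thy1 without BL/6 replicate 2 (adjusted p = 0.053). Of 14 B and plasma cell genes, 8 were at 0 in HSC, among them Ms4a1 and Ebf1, with 1 count for Pax5. The sum was 418 CPM in HSC against 158 and 170 CPM in BL/6 CMPs, nearly all of it Xbp1 (357 CPM in HSC against 137 and 149 CPM) and Cd79b (52.3 CPM against 16.8 and 15.5 CPM). Of 14 macrophage genes, 7 were at 0 in HSC, among them Adgre1, C1qa, C1qb and C1qc, and the sum was 22.1 CPM in HSC against 64.0 and 80.7 CPM. Class II genes, which B cells and macrophages also read, summed to 4309 CPM in HSC against 256 and 283 CPM in BL/6 CMPs. Of 17 stromal and endothelial genes, 10 were at 0 in HSC, among them Cdh5, Col1a1 and Pdgfra. Of the 7 tested, 1 was higher and 1 lower. Emcn (endomucin, an endothelial and stem cell surface protein) was at 17.5 CPM in HSC against 2.21 and 2.50 CPM in BL/6 CMPs (2.88 ± 0.51, adjusted p = 0.00491; 0.0534 without BL/6 replicate 1). Pdgfrb, a receptor of stromal cells, was at 9.53 CPM in HSC against 54.4 and 55.2 CPM (-2.52 ± 0.36, adjusted p = 0.00158). For this list the sum was 642 CPM in HSC against 500.1 and 509 CPM.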

How the data were processed

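RNA of sorted cells had been turned into libraries with a targeted kit that amplifies 1 amplicon per gene (Ion AmpliSeq Transcriptome), per the labels' protocols. The authors deposited raw read counts per amplicon in 1 table per chip. The submitters' processing notes name mm10 as the build; aligner and counter are not stated there or in the labels. A variant or splice form under an amplicon changes its count. Totals ran from 7372430 to 13854314 counts.

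All 7 libraries entered 1 fit with 4 group means in edgeR 4.0.16 (R 4.3.3; limma 3.58.1): TMM scaling, filterByExpr with a minimum count of 10 (11429 of 23930 genes), robust quasi-likelihood F-tests, Benjamini-Hochberg adjustment over all genes tested, and a call under 0.05. A gene could pass the filter through 1 library, since the smallest group holds 1. CPM use TMM-scaled totals. Errors are SE. A gene at 0 in a group is set against 3 counts per library; at 1 to 3 counts the ratio has a 95% exact interval for counts. The steps were tested on simulated data.

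Genes named were the 8 largest increases and 8 largest decreases (no overlap of libraries, a mean of at least 20 CPM on the higher side), the 6 largest each way of each class alone, up to 3 members of each list with 3 or more called, and a fixed set; further examples were chosen after their values were seen. Some genes that these rules pick by name are not reported here. The 27 lists (617 of 685 entries in the table) and the genes were chosen with earlier results of these data known. Positions are from GENCODE M21 by symbol (95.6% of tested genes), and promoters are credited to RefSeq, GRCm38.p6. Same-numbered libraries did not deviate together (correlations 0.00625, -0.0719 and -0.102), so numbers were not taken as pairs.

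Alternatives were RLE factors, library totals, DESeq2 1.42.0, limma-voom, no filter, a minimum count of 50, a fold threshold, thinning, fewer groups, a replicate block, the tests without the overlap condition, and each replicate left out.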

Additional observations from a re-analysis of the deposited data

How the results depend on the processing

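With 1 HSC library the counts of calls depended most on which libraries set the spread. Leaving out 1 library gave 815 to 4828 called genes, 550 to 2495 in the population class and 81 to 1174 in the strain class, lowest without a BL/6 CMP or LSK CD150+CD48+ library and highest without a pMT-10 CMP library; of the 2320 genes, 814 to 2319 were called again. With HSC and both CMP groups alone, 1405 genes were called and 777 were in the population class; with HSC and BL/6 CMPs alone, which leaves 1 residual degree of freedom, 6127 were called. A test against a log2 fold change of 1 called 769 genes, 384 in the population class and 51 in the strain class; it asks more of each gene by its construction. The cause of the other changes was not tested. DESeq2, limma-voom, RLE factors, library totals, thinning, a minimum count of 50 and no filter on counts gave 2080 to 2976 called genes, 1148 to 1624 in the population class and 375 to 608 in the strain class. The replicate block gave 2169, 1175 and 357; among the genes named it changed only the call of Cdc6. Dropping the overlap condition changed neither class (1291 and 416). Of the genes examined singly, 15 lost their call without either LSK CD150+CD48+ library and 31 and 34 without BL/6 CMP replicate 1 and 2. Among them only Irf8, not called, changed sign, at -0.10 (adjusted p = 0.904) without BL/6 CMP replicate 2, in a range of -0.10 to 0.12 over the libraries left out. The smallest library, HSC, limits low genes: under 0.397 CPM it cannot tell a level from 0.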

Other observations

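Gene families chosen after their values were seen are given as values. Hox genes also enter the stem cell list, so the 2 counts are not independent. For each family, the shares over all genes tested were 11.8% higher and 8.50% lower. Of 21 tested replication-dependent histone genes, 12 were lower and 0 higher in HSC than in BL/6 CMPs, and all 21 lay below 0 in log2 fold change (-3.15 to -0.31, median -1.04). Hist1h1b, a linker histone, was at 639 CPM in HSC against 1154 and 1458 CPM in BL/6 CMPs (-1.03 ± 0.30, adjusted p = 0.0374), and was not called without any one of the LSK CD150+CD48+ and BL/6 libraries (0.0833, 0.082, 0.0677 and 0.173). Of 9 tested Hox genes, 5 were higher and 0 lower, with Hoxa7 at 98.6 CPM in HSC against 38.3 and 43.8 CPM (1.26 ± 0.26, adjusted p = 0.0101; 0.105 and 0.068 without BL/6 replicate 1 and 2). Of 8 tested Gimap genes, GTPases of lymphocyte survival, 6 were higher and 1 lower. Gimap8 was at 20.2 CPM in HSC, 3.86 and 3.81 CPM in LSK CD150+CD48+ cells, 1.54 and 1.04 CPM in pMT-10 CMPs and 1.02 and 0.808 CPM in BL/6 CMPs (4.46 ± 0.46, adjusted p = 0.000293).

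Some genes of neither class were low in HSC and in pMT-10 CMPs but not in LSK CD150+CD48+ cells, which shared a chip with pMT-10 CMPs. Trpc4ap, an adaptor of ubiquitin ligases, was at 1.72 CPM in HSC and 2.76 and 1.51 CPM in pMT-10 CMPs, with 77.3 and 48.1 CPM in LSK CD150+CD48+ cells and 17.0 and 23.2 CPM in BL/6 CMPs (-3.54 ± 0.55 for HSC against BL/6 CMPs, adjusted p = 0.00242). Qrich1 was at 6.48 CPM in HSC and 10.7 and 4.40 CPM in pMT-10 CMPs, with 116 and 76.2 CPM in LSK CD150+CD48+ cells and 58.5 and 66.7 CPM in BL/6 CMPs (-3.27 ± 0.53, adjusted p = 0.00302). Txnip, a glucose-regulated inhibitor of thioredoxin, was at 124 CPM in HSC and 101 and 45.9 CPM in pMT-10 CMPs, with 327 and 414 CPM in LSK CD150+CD48+ cells and 375 and 362 CPM in BL/6 CMPs (-1.57 ± 0.41, adjusted p = 0.0271). Txnip was not called without any one of the LSK CD150+CD48+ and BL/6 libraries (0.0778, 0.0769, 0.105 and 0.0984). These examples were picked after their values were seen.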
